A study of Mus musculus with 24 samples.

Results

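The genes described here are 39 p53 targets and apoptosis genes, taken as a fixed list of symbols and found among the 55487 genes of the count tables through their Ensembl identifiers in GENCODE M21; all 39 were found. RNA sequencing covered 24 libraries in 12 groups of 2 from KH2 mouse embryonic stem cells, each carrying a doxycycline (DOX)-inducible DUX transgene (TRE_DUX). DUX is the homeodomain factor that turns on genes of the 2-cell embryo. 6 lines were used: WT and DUXBL-KO (DUXBL is a homeodomain relative of DUX), then TRIM24-KO, TRIM33-KO and a pair of WT lines, WT pLV2 line 1 and line 2. Untreated cells of every line were set beside cells given DOX for 16 h. TRIM24 and TRIM33 are related chromatin-binding proteins of the tripartite motif family, and TRIM24 has been described as a ubiquitin ligase for p53. The first 2 lines are called the plain set and the other 4, whose titles carry pLV2, the pLV2 set. The sets were normalised apart, so levels are compared only within a set.

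The tumour suppressor p53, encoded by Trp53, is a transcription factor that accumulates after DNA damage and other stress and switches on genes for cell cycle arrest, DNA repair, metabolic adjustment and cell death. Mdm2, itself a p53 target, encodes the ubiquitin ligase that holds p53 low. Death is carried out along the mitochondrial route, where BH3-only proteins such as PUMA (Bbc3), NOXA (Pmaip1) and BIM (Bcl2l11) engage the guardians BCL2, BCL-XL (Bcl2l1) and MCL1 and the pore former BAX, and along the death receptor route, where receptors such as FAS activate caspase 8. Mouse embryonic stem cells hold a large pool of p53 and are known for readily entering apoptosis after damage.

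What pLV2 stands for is not stated in the labels, nor which WT pLV2 line belongs to which knockout, whether a knockout line is 1 clone, or whether the 2 libraries of a group came from separate cultures; p-values therefore measure the spread between these libraries, which may be technical. The number after pLV2 was read as a line number. In 8 pLV2 libraries the treatment tag and the title disagree about DOX, and the titles were followed. Counts of Duxf3 (Dux) follow the titles, with 0 to 2 in libraries without DOX and 20 to 110 in those with it. Without DOX, Trim33 had 20.3 and 21.4 CPM (counts scaled to library size) in TRIM33-KO, against 115 to 139.96 in the WT pLV2 libraries. Trim24 had 137 and 123 CPM in TRIM24-KO, above line 1 (100.2 and 94.5) and below line 2 (196 and 165), so whether it was lower depends on the WT line. Duxbl1 had 0.862 and 0.321 CPM (16 and 6 counts) in DUXBL-KO and 1.86 and 0.364 CPM (24 and 6 counts) in WT, which overlap. With DOX it had 11.1 and 4.97 CPM in DUXBL-KO and 8.34 and 3.23 CPM in WT, so it was not lower in DUXBL-KO there. Transcript levels do not settle these 2 labels, and the lines are called labelled TRIM24-KO and labelled DUXBL-KO. Gene counts per library ran from 11784696 to 19136869. CT010467.1 took 30.4% of gene counts in labelled TRIM24-KO with DOX replicate 2 and 12.9% in TRIM33-KO with DOX replicate 2, so both libraries stand apart. All 10 pluripotency markers were expressed in every library. Of 17 fibroblast markers, listed because feeder fibroblasts were an option in culture, 8 to 10 had at most 3 counts in both libraries of a group, with Postn, Lum and Fap at or near 0.

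Levels are given as CPM, on effective library sizes, replicate 1 first. Changes are log2 fold changes ± SE from edgeR's quasi-likelihood test, and a gene is called when its p-value, adjusted by Benjamini-Hochberg over all genes tested in the set, is under 0.05. Levels cannot tell fewer expressing cells from less RNA per cell in these bulk samples. With 2 libraries a group, libraries often separate fully without any difference, so separation is given as description only. The test covered 38 of the 39 members in both sets. Fas, the death receptor, was the exception, with 1 to 12 counts per library. Its level was 0.388 and 0.182 CPM in WT without DOX, 0.137 and 0.129 in line 1, 0.0969 and 0.184 in line 2, 0.0601 and 0.116 in labelled TRIM24-KO, and 0.348 and 0.576 in TRIM33-KO; with DOX it reached 0.533 and 1.08 in TRIM33-KO and 0.329 and 0.0546 in labelled DUXBL-KO. These levels are too low to compare.

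Mouse promoter sequence places candidate p53 half-sites next to several members, and these are shown because the members' behaviour is read against p53. In the 250 bases before the start site of 31 members with an entry in RefSeq (GRCm38.p6), the p53 consensus half-site was matched in 11 (35.5%), against 2216 of 27025 genes (8.20%) with the same window. A match is a description of letters, not a bound site. Members were listed as p53 targets, so the higher share reflects how the list was chosen and says nothing about these data. The DUX motif TGATTNAATCA, searched on both strands, was in none of the 31 windows and in 10 of the 27025. The pattern of either motif reads the same on both strands. Capitals mark the half-site match. The matches in Gadd45a, Polk, Ei24, Aen and Rps27l are not shown. 8 members had no entry in the promoter table: Pmaip1, Zmat3, Tnfrsf10b, Xpc, Perp, Ddb2, Trp53inp1 and Rrm2b.
Trp53, chr11:69580264-69580313, plus strand: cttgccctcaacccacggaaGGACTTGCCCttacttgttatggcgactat
Mdm2, chr10:117710915-117710964, minus strand: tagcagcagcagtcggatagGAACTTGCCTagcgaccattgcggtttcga
Cdkn1a, chr17:29090886-29090935, plus strand: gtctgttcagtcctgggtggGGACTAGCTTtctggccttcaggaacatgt
Cdkn1a, chr17:29090908-29090957, plus strand: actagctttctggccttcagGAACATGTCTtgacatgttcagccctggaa
Ccng1, chr11:40755442-40755491, minus strand: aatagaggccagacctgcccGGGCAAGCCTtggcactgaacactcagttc
Bax, chr7:45467070-45467119, minus strand: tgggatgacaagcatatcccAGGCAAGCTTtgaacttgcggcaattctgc
Sesn1, chr10:41887246-41887295, plus strand: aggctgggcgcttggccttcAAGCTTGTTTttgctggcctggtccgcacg
The second Cdkn1a window overlaps the first, and its match is followed directly by the letters tgacatgttc.

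The members spanned a wide range of levels without DOX. Per kilobase of exon, WT without DOX held 148 CPM per kilobase of Rps27l, a ribosomal protein paralogue, 107 of Trp53, 78.6 of Mcl1, 56.1 of Ccng1 (cyclin G1) and 50.7 of Bax. The lowest were 0.284 for Casp8, 0.138 for Fas and 0.0765 for Bcl2, so a caspase and a receptor of the death receptor route and one guardian were the lowest members in that line. Rps27l shares 11.2% of its 50-base stretches with other genes, mainly Gm14706, and Bax shares 8.51%, so part of their counts is uncertain. Trp53 is the first of the named genes. Its level was 502 and 367 CPM in WT without DOX and 448 and 350.4 with it, and 409.7 and 341 and then 371 and 318 in labelled DUXBL-KO. In the pLV2 set it was 317 and 317 in line 1, 329 and 347 in line 2, 267 and 274 in labelled TRIM24-KO and 328 and 359.8 in TRIM33-KO without DOX. With DOX the same lines had 307 and 314, 342 and 352, 305 and 285 and 339 and 365. Trp53 transcript was not called in any of the 6 DOX comparisons, whose log2 fold changes ran from -0.12 in labelled DUXBL-KO to 0.13 in labelled TRIM24-KO.

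DOX moved a minority of the list in each line. In the pLV2 lines the called members went both ways, and in the plain lines all of them were lower. In all 4 pLV2 lines Pmaip1, Btg2 and Plk2 rose and Bbc3 fell; in both plain lines Phlda3 and Zmat3 fell. The numbers of members called were 2 in WT (both lower), 4 in labelled DUXBL-KO (all lower), 6 in line 1 (3 higher, 3 lower), 9 in line 2 (3 higher, 6 lower), 9 in labelled TRIM24-KO (6 higher, 3 lower) and 17 in TRIM33-KO (7 higher, 10 lower), of 38 tested. Across all genes tested the called share was 2.93% in WT (2.82% higher, 0.105% lower), 4.91% in labelled DUXBL-KO (4.50% higher, 0.404% lower), 16.3% in line 1 (10% higher, 6.25% lower), 26.8% in line 2 (12.7% higher, 14% lower), 16.4% in labelled TRIM24-KO (11.5% higher, 4.94% lower) and 36.6% in TRIM33-KO (16.5% higher, 20.1% lower). The balance of higher and lower calls depended on the scaling between libraries. With RLE (median ratio) scaling factors in place of the TMM factors used here, line 2 had 5 members higher and 2 lower, TRIM33-KO 9 and 4, and labelled TRIM24-KO 5 and 4. DESeq2 gave 5 and 2, 9 and 4, and 5 and 1, and with CT010467.1 left out the counts were 5 and 2, 7 and 10, and 5 and 4. Over all genes, too, RLE factors turned line 2 to 2619 higher and 1774 lower from 2304 and 2534, and TRIM33-KO to 3499 and 2676 from 2978 and 3633. Under RLE factors and DESeq2 the lower calls of Cdkn1a, Psrc1, Gadd45a and Ei24 ended in both lines, and those of Mcl1 and Sesn1 in TRIM33-KO, while Mdm2 and Ccng1 in line 2 and Eda2r and Rps27l in TRIM33-KO became called higher. In labelled TRIM24-KO the rise of Mdm2 was not called under either. The members' shares of 15.8%, 23.7%, 23.7% and 44.7% in the pLV2 lines lie near these backgrounds. The members' median log2 fold changes were -0.23 in WT, -0.28 in labelled DUXBL-KO, -0.18 in line 1, -0.05 in line 2, -0.03 in labelled TRIM24-KO and -0.07 in TRIM33-KO, beside -0.01, -0.01, -0.03, -0.07, -0.00 and -0.09 for all genes tested.

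**Figure D1:**
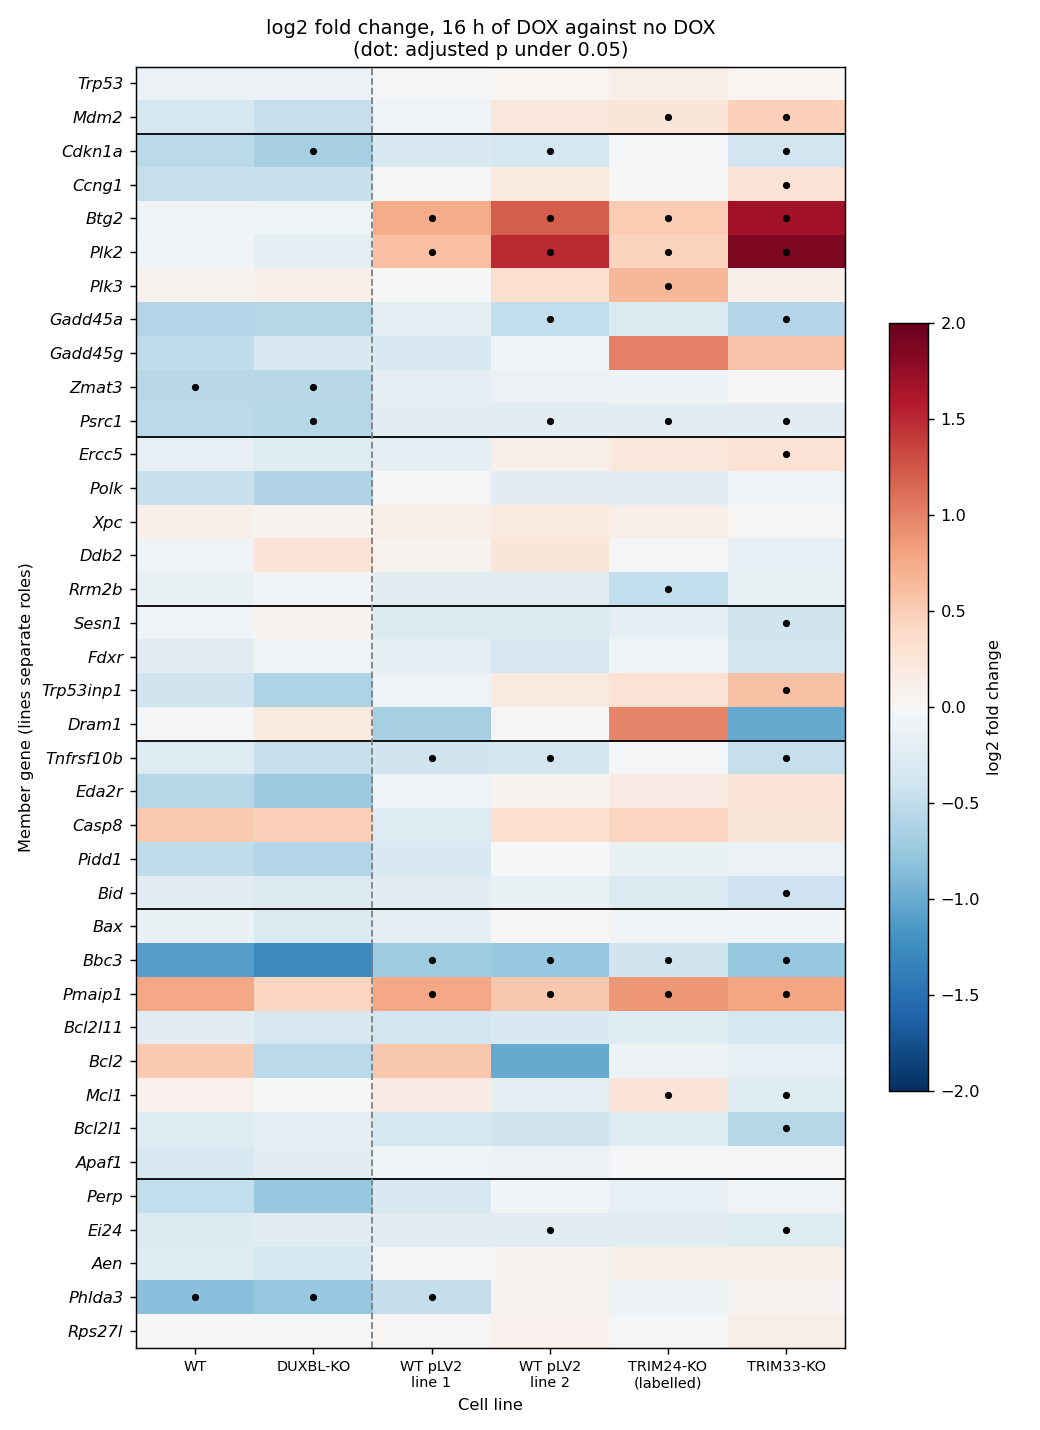
Log2 fold change of the 38 tested members (rows, by role) after 16 h of DOX against no DOX in the 6 lines (columns; the dashed line parts the plain from the pLV2 set). Red is higher and blue lower with DOX, a dot marks a called member; Btg2, Plk2 and Pmaip1 carry dots in all 4 pLV2 columns as higher and Bbc3 as lower.

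Of the 38 tested members, 16 had a log2 fold change below 0 in all 6 lines (Cdkn1a, Gadd45a, Zmat3, Psrc1, Polk, Rrm2b, Fdxr, Tnfrsf10b, Pidd1, Bid, Bbc3, Bcl2l11, Bcl2l1, Apaf1, Perp and Ei24), and 2 had one above 0 in all 6 (Pmaip1 and Xpc). The medians over all genes tested also lay below 0 in all 6 lines. The same counts over all genes are not given here, so no lowering particular to the list is read from these. In the edgeR fit used here 17 tested members were called in none of the 6, and Mcl1 alone was called in both directions, higher in labelled TRIM24-KO and lower in TRIM33-KO. DESeq2 called Eda2r and Polk lower in labelled DUXBL-KO (-0.73 and -0.60, adjusted p 0.0105 and 0.0397). It also called Eda2r higher in TRIM33-KO, where the lower call of Mcl1 ended. Summed levels of 6 markers of 2-cell-like cells rose alongside, from at most 1.23 CPM to between 579 and 1713 CPM in the plain set and from at most 4.25 CPM to between 961 and 5694 CPM in the pLV2 set. The highest sums, 5694 and 5224 CPM, were in TRIM33-KO with DOX, the line with the most members called; the part of that shift in the members' changes was not tested. Summed pluripotency markers went from 4301 to 5029 CPM without DOX to 3735 to 4695 CPM with it in the pLV2 set. Summed fibroblast markers went from 38.99 to 73.1 CPM without DOX to 53.8 to 82.1 CPM with it, and of 7 tested 2 were called higher in lines 1 and 2 and labelled TRIM24-KO each, 3 in TRIM33-KO, and none lower; their part was not tested.

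Among the BH3-only genes the 2 classical p53 targets moved apart. Pmaip1 (NOXA, which neutralises MCL1; chromosome 18) had 66.1 and 67.2 CPM in line 1 without DOX and 111 and 118 with it, 36.98 and 36.3 and then 53.5 and 53.5 in line 2, 66.5 and 65.8 and then 122 and 119 in labelled TRIM24-KO, and 32.5 and 21.5 and then 49.96 and 42.9 in TRIM33-KO. Every library with DOX was above both libraries without it in its line. The log2 fold changes were 0.78 ± 0.12, 0.55 ± 0.12, 0.86 ± 0.12 and 0.79 ± 0.13, with adjusted p of 1.09e-04, 0.00323, 3.07e-05 and 1.42e-04. In the plain set Pmaip1 had 44.8 and 54.00 CPM in WT without DOX and 94.9 and 73.6 with it, and 72.2 and 76.1 and then 111 and 88.8 in labelled DUXBL-KO. The libraries did not overlap there either, but log2 fold changes of 0.77 ± 0.17 and 0.43 ± 0.17 did not pass (adjusted p 0.0701 and 0.299). In WT Pmaip1 was called higher by DESeq2 (0.79, adjusted p 0.00347) and by edgeR with the replicate number as a block (0.76, adjusted p 0.0276). By edgeR without DOX replicate 2 it was 0.94 there. Without DOX replicate 2, Pmaip1 was 0.86 (edgeR, adjusted p 0.000358) in labelled TRIM24-KO and 0.95 (0.000233) in TRIM33-KO.

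Bbc3 (PUMA, the BH3-only protein that binds all BCL2-type guardians; chromosome 7, plus strand) went the other way. It had 25.1 and 23.2 CPM in line 1 without DOX and 14.5 and 15.1 with it, 9.94 and 12.6 and then 6.11 and 7.08 in line 2, 23.1 and 25.2 and then 19.6 and 16.8 in labelled TRIM24-KO, and 12.97 and 12.8 and then 7.02 and 8.24 in TRIM33-KO. Both libraries with DOX were below both without it in each line. Log2 fold changes were -0.71 ± 0.13, -0.76 ± 0.15, -0.40 ± 0.13 and -0.76 ± 0.15 (adjusted p 6.58e-04, 9.44e-04, 0.0392 and 6.33e-04). Without labelled TRIM24-KO with DOX replicate 2 the change in that line was -0.33 (adjusted p 0.202), and leaving out either of its libraries without DOX also ended the call (-0.46, adjusted p 0.0656, without replicate 1 and -0.36, adjusted p 0.163, without replicate 2). DESeq2 did not call Bbc3 there either (-0.42, adjusted p 0.0728), nor did the fit of that line's 4 libraries alone (-0.40, 0.0757). In the plain set the libraries also separated, with 19.9 and 12.5 CPM without DOX against 8.76 and 6.29 with it in WT and 19.6 and 20.9 against 10.3 and 6.61 in labelled DUXBL-KO. Those log2 fold changes, -1.10 ± 0.30 and -1.27 ± 0.30, were not called in the edgeR fit used here (adjusted p 0.162 and 0.0667) and were called by DESeq2 (-1.08 and -1.27, adjusted p 0.0321 and 0.00352). With the replicate number as a block edgeR called both (-1.09 and -1.31, adjusted p 0.0209 and 0.00507). In TRIM33-KO without DOX replicate 2 Bbc3 was -0.81 (adjusted p 0.00493).

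The growth arrest genes split as well. Btg2, an antiproliferative transcriptional cofactor, had 13.9 and 14.8 CPM in line 1 without DOX and 25.7 and 22.6 with it, 20.1 and 20.96 and then 57.7 and 36.99 in line 2, 38.9 and 35.9 and then 57.4 and 48.9 in labelled TRIM24-KO, and 23.1 and 20.5 and then 74.9 and 64.7 in TRIM33-KO. With DOX it was higher in every library of these lines, by 0.75 ± 0.17, 1.21 ± 0.16, 0.51 ± 0.15 and 1.68 ± 0.15 (adjusted p 0.00599, 1.63e-05, 0.0279 and 1.69e-07). The call in line 1 was lost without its DOX replicate 1 (0.65, adjusted p 0.0622), and in labelled TRIM24-KO without either library lacking DOX (0.57 and 0.43, adjusted p 0.0707 and 0.184) or without DOX replicate 1 (0.37, adjusted p 0.22). Without DOX replicate 2 it was 0.59 (adjusted p 0.0387) there and 1.85 (adjusted p 9.12e-07) in TRIM33-KO. In the plain set the groups overlapped: 28.6 and 31.7 CPM against 34.3 and 23.5 in WT, and 23.8 and 31.2 against 30.1 and 21.9 in labelled DUXBL-KO.

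Plk2, a polo-like kinase of the centriole cycle and of the stress response, had 19.3 and 21.4 CPM in line 1 without DOX and 31.5 and 30.6 with it, 10.3 and 12.8 and then 36.3 and 28.6 in line 2, 50.9 and 44.6 and then 64.6 and 65.96 in labelled TRIM24-KO, and 13.4 and 13.9 and then 51.4 and 48.2 in TRIM33-KO. No library with DOX overlapped those without it. Log2 fold changes were 0.61 ± 0.12, 1.50 ± 0.13, 0.45 ± 0.11 and 1.87 ± 0.12 (adjusted p 0.00197, 7.01e-08, 0.00872 and 1.61e-09). In labelled TRIM24-KO the call was lost without the replicate 2 library lacking DOX (0.33, adjusted p 0.142) and without DOX replicate 2 (0.41, adjusted p 0.0615), and in TRIM33-KO it was 1.97 (adjusted p 2.47e-08) without DOX replicate 2. WT of the plain set had 28.2 and 26.5 CPM without DOX and 31.9 and 20.9 with it, and labelled DUXBL-KO had 27.1 and 30.9 and then 33.3 and 18.2, with overlapping groups in both. Its relative Plk3 had 35.2 and 28.5 CPM in labelled TRIM24-KO without DOX and 56.4 and 43.97 with it, a log2 fold change of 0.66 ± 0.14 (adjusted p 0.00334). That call was lost without the replicate 2 library lacking DOX (0.49, adjusted p 0.0829) or without DOX replicate 1 (0.45, adjusted p 0.089), and was kept without DOX replicate 2 (0.80, adjusted p 0.00194).

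**Figure D2:**
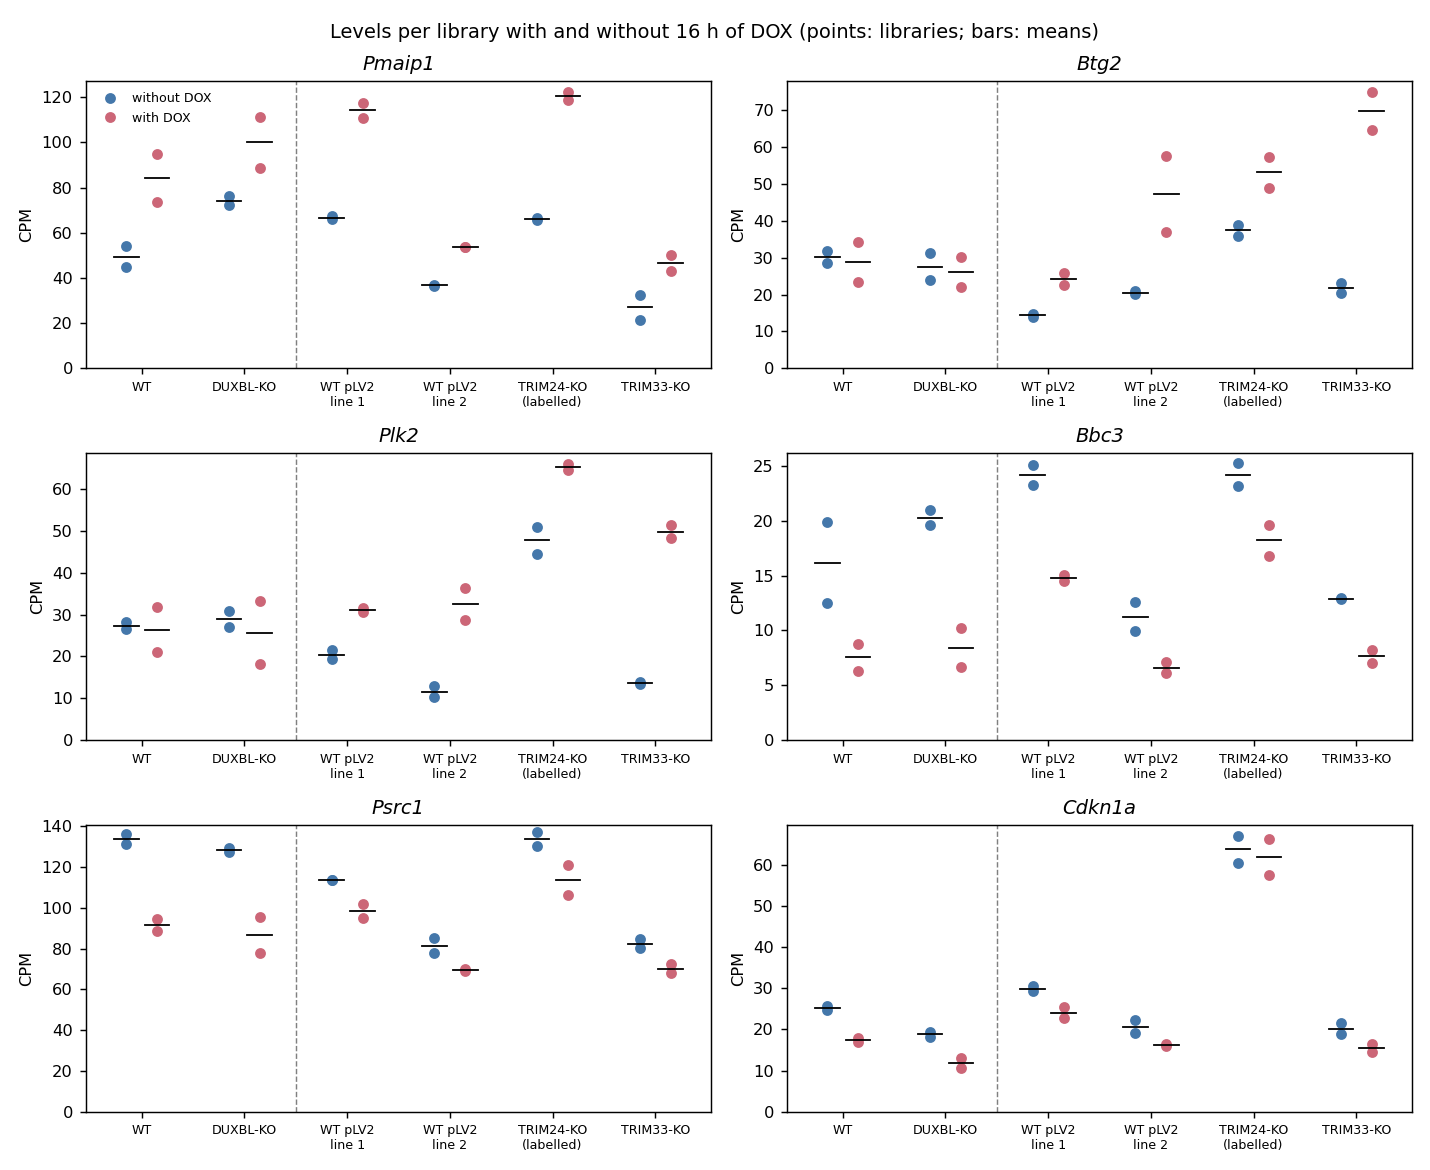
CPM (linear axes from 0) per library in the 6 lines, without DOX (blue) and with DOX (red); bars are group means of 2 libraries and the dashed line parts the sets. Pmaip1 is higher and Bbc3 lower with DOX in every line, while Btg2 and Plk2 separate only in the 4 pLV2 lines.

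Cdkn1a, which encodes the cyclin-dependent kinase inhibitor p21 and is the standard readout of p53 activity, went down where it was called. It had 24.8 and 25.8 CPM in WT without DOX and 16.9 and 17.9 with it, and 18.3 and 19.4 and then 13.1 and 10.6 in labelled DUXBL-KO. In the pLV2 set the pairs were 30.6 and 29.2 and then 25.3 and 22.9 in line 1, 19.1 and 22.2 and then 15.9 and 16.4 in line 2, and 21.5 and 18.8 and then 16.4 and 14.4 in TRIM33-KO. Groups did not overlap in these 5 lines. The log2 fold change passed in labelled DUXBL-KO (-0.67 ± 0.14, adjusted p 0.0456), line 2 (-0.35 ± 0.12, 0.0343) and TRIM33-KO (-0.38 ± 0.12, 0.0199), and not in WT (-0.54 ± 0.14, 0.137) or line 1 (-0.31 ± 0.11, 0.0674). All 3 calls were lost when 1 of several libraries was left out, with adjusted p up to 0.271 (labelled DUXBL-KO without DOX replicate 2), 0.325 (line 2 without the replicate 2 library lacking DOX) and 0.275 (TRIM33-KO without DOX replicate 2). Labelled TRIM24-KO was the exception, with 66.9 and 60.5 CPM without DOX and 66.2 and 57.4 with it, overlapping groups and a log2 fold change of -0.04 ± 0.10.

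Psrc1, a spindle-associated p53-regulated gene, was called lower in labelled DUXBL-KO (-0.57 ± 0.11), line 2 (-0.22 ± 0.07), labelled TRIM24-KO (-0.23 ± 0.07) and TRIM33-KO (-0.23 ± 0.07), with adjusted p from 0.0202 to 0.0339. Its levels were 129.6 and 128 CPM and then 95.5 and 77.8 in labelled DUXBL-KO, 77.7 and 85.1 and then 70.1 and 69.1 in line 2, 137 and 130.3 and then 121 and 106 in labelled TRIM24-KO, and 80.4 and 84.7 and then 67.9 and 72.6 in TRIM33-KO. In WT it had 136 and 131 CPM and then 94.6 and 88.7, and in line 1 114 and 114 and then 95.2 and 102. Libraries with DOX were lower in all 6 lines. Each of these 4 calls was lost without 1 of 2 or more libraries, with adjusted p up to 0.421 (TRIM33-KO without DOX replicate 1). Zmat3, an RNA-binding p53 target, had 202 and 198 CPM in WT and 135 and 137 with DOX, and 205 and 209.7 and then 152 and 131 in labelled DUXBL-KO. All libraries with DOX were lower, with log2 fold changes of -0.55 ± 0.09 and -0.55 ± 0.09 (adjusted p 0.0232 and 0.015). In the pLV2 lines its log2 fold changes were -0.19, -0.12, -0.10 and -0.01, none called. Phlda3, an AKT inhibitor, had 24.8 and 29.3 CPM and then 15.8 and 14.7 in WT, 30.1 and 34.8 and then 19.8 and 18.4 in labelled DUXBL-KO, and 22.2 and 16.5 and then 13.1 and 14.7 in line 1. Phlda3 fell in all 3, without overlap, with log2 fold changes of -0.83 ± 0.14, -0.76 ± 0.14 and -0.47 ± 0.15 (adjusted p 0.026, 0.0232 and 0.0369). In line 1 Phlda3 lost its call without 3 of the 4 libraries and was -0.20 (adjusted p 0.531) without the replicate 1 library lacking DOX. No call in the plain set held whichever library of its line was left out: WT then had 0 or 1 member called and labelled DUXBL-KO 0 to 3.

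Gadd45a, a stress-induced cell cycle inhibitor, fell in line 2 (-0.49 ± 0.17, adjusted p 0.0377) and in TRIM33-KO (-0.58 ± 0.20, 0.0308); 19.1% of its exons overlap E230016M11Rik on the opposite strand, and the strand used in counting is not given in the sources used here. Its calls were lost without the replicate 2 library of line 2 lacking DOX (-0.29, adjusted p 0.319) and without TRIM33-KO DOX replicate 2 (-0.38, adjusted p 0.278), among others. Mdm2 had 140.1 and 129 CPM in labelled TRIM24-KO without DOX and 160.3 and 158 with it, 65.7 and 71.8 and then 92.9 and 98.2 in TRIM33-KO, 76.5 and 88.5 and then 78.2 and 79.2 in line 1, and 61.4 and 69.01 and then 78.3 and 73.6 in line 2. It rose in TRIM33-KO (0.47 ± 0.08, adjusted p 1.91e-04) and in labelled TRIM24-KO (0.24 ± 0.08, 0.0387), the latter no longer called without any of 3 libraries (0.16, adjusted p 0.34, without the replicate 2 library lacking DOX; 0.22 and 0.164 without DOX replicate 1; 0.22 and 0.175 without DOX replicate 2). That call also ended with RLE factors, without CT010467.1, with no filter on low counts, with DESeq2 and with only that line in the fit (0.21 to 0.25, adjusted p 0.0569 to 0.109). In TRIM33-KO it was 0.50 (adjusted p 0.00158) without DOX replicate 2. In the plain set the Mdm2 pairs were 133 and 123 and then 106 and 94.03 in WT, and 117 and 144 and then 99.8 and 89.5 in labelled DUXBL-KO, lower in every library with DOX but not called (-0.35 ± 0.13 and -0.46 ± 0.13). With the replicate number as a block edgeR called the fall in labelled DUXBL-KO (-0.46, adjusted p 0.0487). Cyclin G1 (Ccng1) had 129 and 147 CPM in TRIM33-KO without DOX and 159.7 and 176 with it, a rise of 0.28 ± 0.08 (adjusted p 0.00873; 0.21 and 0.0849 without the replicate 1 library lacking DOX). It had 104 and 112 and then 107 and 103 in line 1, 120.4 and 132 and then 153 and 137 in line 2, 127 and 123 and then 125 and 125 in labelled TRIM24-KO, 218 and 176 and then 168 and 118 in WT, and 214 and 139.5 and then 169.5 and 89.1 in labelled DUXBL-KO. DOX libraries were above the others, without overlap, in line 2 and TRIM33-KO and below them in WT.

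Of the death receptor genes, Tnfrsf10b, the mouse TRAIL receptor, fell in 3 of the 6 lines. It had 28.9 and 30.2 CPM and then 22.8 and 22.2 in line 1, 32.3 and 35.3 and then 27.2 and 25.3 in line 2, and 33.8 and 34.2 and then 24.3 and 24.9 in TRIM33-KO, with log2 fold changes of -0.39 ± 0.09, -0.36 ± 0.09 and -0.47 ± 0.09 (adjusted p 0.0049, 0.00422 and 4.89e-04). The call was lost in line 1 without the replicate 2 library lacking DOX (-0.32, adjusted p 0.0981) or DOX replicate 2 (-0.37, 0.0554), and in line 2 without the replicate 2 library lacking DOX (-0.27, 0.0806). In labelled TRIM24-KO it had 41.3 and 39.9 and then 41.2 and 37.6 CPM, with overlapping groups, while in the 3 called lines every DOX library was lower. Bid, the link from caspase 8 to mitochondria, had 35.9 and 35.9 CPM in TRIM33-KO without DOX and 25.2 and 28.6 with it, a fall of -0.42 ± 0.11 (adjusted p 0.00583; -0.26 and 0.189 without DOX replicate 1). Eda2r, Casp8 and Pidd1 (a death domain adaptor) were not called with DOX in any line in the edgeR fit used here. DESeq2 called Eda2r lower in labelled DUXBL-KO (-0.73, adjusted p 0.0105) and higher in TRIM33-KO. With the replicate number as a block edgeR called Eda2r (-0.72, adjusted p 0.0159) and Pidd1 (-0.58, 0.0143) lower in labelled DUXBL-KO. The same fit called Pidd1 lower in WT (-0.51, 0.0394).

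Among the guardians and the pore, in the edgeR fit used here, Bax and Bcl2 were called in no line, Mcl1 in 2 lines and Bcl2l1 in 1. With the replicate number as a block Bax was called lower in labelled DUXBL-KO (-0.30, adjusted p 0.0318). Bax had 80.2 and 79.6 CPM in WT and 72.8 and 72.8 with DOX, 78.1 and 80.6 and then 64.1 and 65.2 in labelled DUXBL-KO, 80.8 and 76.4 and then 69.4 and 67.3 in line 1, 51.1 and 59.7 and then 54.9 and 56.98 in line 2, 82.2 and 80.8 and then 83.5 and 72.4 in labelled TRIM24-KO, and 57.00 and 53.5 and then 55.6 and 50.6 in TRIM33-KO. It was lower in every DOX library of both plain lines and of line 1 and overlapped elsewhere; log2 fold changes ran from -0.30 to 0.02. Bcl2 had 2 to 27 counts per library. Its pairs were 0.854 and 0.547 and then 0.900 and 1.09 CPM in WT, 0.808 and 1.44 and then 0.788 and 0.765 in labelled DUXBL-KO, 0.274 and 0.193 and then 0.533 and 0.151 in line 1, 0.678 and 1.04 and then 0.305 and 0.522 in line 2, 1.02 and 1.16 and then 0.745 and 1.40 in labelled TRIM24-KO, and 0.348 and 0.961 and then 0.622 and 0.542 in TRIM33-KO, with no call and no shared direction. Mcl1, the short-lived guardian that NOXA targets, rose in labelled TRIM24-KO (341 and 309 CPM and then 403 and 374; 0.26 ± 0.07, adjusted p 0.0168) and fell in TRIM33-KO (200.3 and 187 and then 172 and 155; -0.24 ± 0.07, 0.0142). Each Mcl1 call ended without either of 2 libraries: 0.16 (adjusted p 0.281) without the replicate 2 library of labelled TRIM24-KO lacking DOX, 0.19 (0.171) without its DOX replicate 1, -0.17 (0.172) without the replicate 1 library of TRIM33-KO lacking DOX, and -0.11 (0.397) without its DOX replicate 2. Bcl2l1 (BCL-XL) fell in TRIM33-KO by -0.57 ± 0.17 (adjusted p 0.0133; -0.35 and 0.227 without DOX replicate 2, -0.50 and 0.0864 without the replicate 1 library lacking DOX).

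The other members called with DOX were called in 1 line, or in 2 for Ei24. In TRIM33-KO, Trp53inp1, an autophagy and stress cofactor of p53, rose by 0.59 ± 0.10 (adjusted p 3.12e-04) and Ercc5, a repair endonuclease, by 0.29 ± 0.09 (0.0248), while Sesn1 (sestrin 1) changed by -0.39 ± 0.14 (0.0347). Ercc5 lost its call without DOX replicate 1 (0.31, adjusted p 0.0818) or the replicate 1 library lacking DOX (0.27, 0.108), and Sesn1 was -0.19 (0.479) without DOX replicate 1. Ei24 was lower in TRIM33-KO (-0.24 ± 0.08, adjusted p 0.0252) and in line 2 (-0.23 ± 0.08, 0.0383); the first call was lost without any of the 4 libraries (adjusted p up to 0.300, without DOX replicate 1, at -0.17), and the second was -0.09 (0.501) without the replicate 2 library lacking DOX. In labelled TRIM24-KO, Rrm2b, the p53-induced ribonucleotide reductase subunit, had 9.79 and 10.50 CPM without DOX and 6.38 and 8.26 with it, a fall of -0.50 ± 0.16 (0.0409); -0.55 (0.0804) without the replicate 1 library lacking DOX, -0.47 (0.136) without replicate 2, and -0.31 (0.338) without DOX replicate 1. DESeq2 did not call it (-0.52, adjusted p 0.0823). Of all these calls with DOX, the ones that held whichever library of the line was left out were Bbc3, Plk2 and Pmaip1 in line 1, Bbc3, Btg2, Plk2 and Pmaip1 in line 2, Pmaip1 in labelled TRIM24-KO, and Bbc3, Btg2, Mdm2, Plk2, Pmaip1, Tnfrsf10b and Trp53inp1 in TRIM33-KO. Without the DOX replicate 2 library that stands apart, 6 members were called in labelled TRIM24-KO and 13 in TRIM33-KO. In that fit Mcl1 was 0.28 (adjusted p 0.0356), Rrm2b -0.70 (0.023) and Psrc1 -0.17 (0.23, not called) in labelled TRIM24-KO. In TRIM33-KO Tnfrsf10b was -0.42 (adjusted p 0.0108), Trp53inp1 0.65 (0.00145), Bid -0.44 (0.0228), Ccng1 0.28 (0.0367), Ercc5 0.39 (0.0227) and Sesn1 -0.47 (0.04997), all called, while Ei24 was -0.19 (0.206) and Psrc1 -0.22 (0.111), not called. When only the 4 libraries of a line entered the fit the count was 14 in line 1 (beside 26.5% of all genes), 4 in line 2 (16.5%) and 5 in labelled TRIM24-KO (12.4%).

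In the edgeR fit used here, differences between lines in the response to DOX were tested directly, and Plk2 was the one member called. Its response was larger in line 2 than in line 1 by 0.89 ± 0.17 (adjusted p 0.0428) and larger in TRIM33-KO than in the mean of both WT pLV2 lines by 0.82 ± 0.15 (adjusted p 0.0166). The shares called over all genes were 0.238% and 0.575%. Neither call held throughout: the line difference lost its call when any of 6 libraries was left out (0.71, adjusted p 0.241, without line 2 DOX replicate 1, and 0.81, adjusted p 0.287, without the replicate 2 library of line 1 lacking DOX, for example), and the TRIM33-KO difference when any of 4 was, with 0.78 (adjusted p 0.117) without its DOX replicate 1; without its DOX replicate 2, which stands apart, the TRIM33-KO difference was 0.87 (adjusted p 0.0348). With 1 WT line as the reference the TRIM33-KO difference was 1.26 (adjusted p 6.83e-04) against line 1 alone and 0.37, not called, against line 2 alone. DESeq2 called the response of 4 members higher in TRIM33-KO than in the mean of the WT pLV2 lines (10.5%, beside 1.08% of all genes). No member's response differed between labelled TRIM24-KO and the WT pLV2 lines by edgeR (0 called, 7 with an unadjusted p under 0.05, 1 by DESeq2; 0.437% of all genes called), although Plk2 was called against line 2 alone (-1.05, adjusted p 0.00842), nor between labelled DUXBL-KO and WT (0 called, 0 with an unadjusted p under 0.05, 0 by DESeq2; 0% of all genes).

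Without DOX, labelled TRIM24-KO stood above both WT pLV2 lines for much of the list: 26 of 38 members were higher and 3 lower than the mean of both lines, with 18 higher than each line alone, including Perp, Gadd45a, Plk2, Plk3, Cdkn1a, Btg2 and Mdm2, while Trp53 transcript itself was lower. Across all genes 43.4% were called, 20.9% higher and 22.5% lower. The median over the members was 0.43, beside -0.02 over all genes tested. By role, 7 of 9 growth arrest genes, all 8 of the BCL2 family and mitochondrial route (3 of them, Bcl2l11, Bcl2l1 and Apaf1, against each WT line alone), 3 of 5 repair genes, 3 of 5 tested death receptor genes, 3 of 5 other death or stress genes, 1 of 4 metabolic genes and Mdm2 were called higher. The genotype rests on the label, since Trim24 transcript lay between the WT lines. 1 member, Trp53, was called lower than each WT line alone. Against line 1 alone 28 were called (23 higher, 5 lower) and against line 2 alone 28 (26 higher, 2 lower). Over all 18079 genes tested, line 1 as the only reference gave 2980 higher and 3161 lower. Line 2 as the only reference gave 4115 higher and 4577 lower.

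Perp, a desmosomal p53 target linked to epithelial cell death, gave the largest difference. It had 84.7 and 64.6 CPM in labelled TRIM24-KO, 15.6 and 16.6 in line 1, 14.4 and 12.99 in line 2 and 14.6 and 13.8 in TRIM33-KO. Both labelled TRIM24-KO libraries were above all the others, and the log2 fold change against the WT lines was 2.32 ± 0.10 (adjusted p 2.91e-11). Cdkn1a had 66.9 and 60.5 CPM there, against 30.6 and 29.2 in line 1 and 19.1 and 22.2 in line 2, a log2 fold change of 1.36 ± 0.09 (adjusted p 2.39e-09). Plk2 had 50.9 and 44.6 CPM against 19.3 and 21.4 and 10.3 and 12.8, or 1.64 ± 0.10 (1.16e-09). For all 3 genes the level in labelled TRIM24-KO without DOX was above that of every WT pLV2 library without DOX.

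Further members were called higher in labelled TRIM24-KO. Gadd45a had 37.2 and 31.9 CPM against 11.05 and 10.7 and 8.97 and 11.2 (1.72 ± 0.12, adjusted p 5.09e-09), and Mdm2 had 140.1 and 129 against 76.5 and 88.5 and 61.4 and 69.01 (0.88 ± 0.07, 1.72e-08). Plk3 was higher by 1.39 ± 0.13, Bcl2l1 by 1.19 ± 0.12, Btg2 by 1.12 ± 0.13, Bcl2l11 by 0.97 ± 0.10, Xpc (damage recognition in nucleotide excision repair) by 0.86 ± 0.10, Phlda3 by 0.82 ± 0.11, Polk (a translesion polymerase) by 0.78 ± 0.10, Trp53inp1 by 0.61 ± 0.09, Eda2r (the EDA-A2 receptor) by 0.59 ± 0.09, Zmat3 by 0.49 ± 0.08, Psrc1 by 0.48 ± 0.06 and Tnfrsf10b by 0.36 ± 0.07. All of these were called against each WT line alone and whichever library was left out. Pidd1 (0.45), Apaf1, the apoptosome scaffold (0.30), Aen, a p53-induced nuclease (0.18), and Bcl2 (1.28) were called on all libraries, and each lost its call without the replicate 1 library of labelled TRIM24-KO (adjusted p 0.107, 0.0574, 0.202 and 0.0901). Mcl1 (0.22) did too (0.15, adjusted p 0.153), and Bcl2 also without any of 4 other libraries (adjusted p up to 0.131).

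For 8 of the members called higher, the call depended on the WT line used. Bax, Bbc3, Pmaip1 and Mcl1 were near line 1 and above line 2: their log2 fold changes were 0.05, 0.00, -0.01 and -0.17 against line 1 and 0.56, 1.11, 0.85 and 0.62 against line 2. Ercc5 and Bcl2 were the reverse, with 0.65 and 2.19 against line 1 and 0.03 and 0.36 against line 2. Aen and Pidd1 were not called against line 1 (0.11 and 0.26) and were called against line 2 (0.25 and 0.63). The 3 lower members were Trp53 (-0.28 ± 0.06, adjusted p 9.82e-04), Rrm2b (-0.54 ± 0.12, 0.00148) and Dram1, a lysosomal autophagy gene (-1.25 ± 0.35, 0.00821). Rrm2b had 9.79 and 10.50 CPM in labelled TRIM24-KO, 17.9 and 17.4 in line 1 and 11.8 and 12.8 in line 2, and was not called against line 2 alone (-0.27). Dram1 had 0.420 and 0.696 CPM against 0.961 and 1.09 and 1.55 and 1.96, at 5 to 38 counts per library over the series, was not called against line 1 alone (-0.87, adjusted p 0.118), and lost its call without the replicate 1 library of labelled TRIM24-KO (-0.94, adjusted p 0.115). Ccng1, Gadd45g, Ddb2, Sesn1, Fdxr, Casp8, Bid, Ei24 and Rps27l were not called, although Ei24 was lower than line 1 (-0.48) and higher than line 2 (0.35) when each was the reference.

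Summed marker levels in labelled TRIM24-KO without DOX were 4301 and 4363 CPM for pluripotency, against 4423 to 5029 CPM in the WT pLV2 libraries, 38.99 and 45.4 CPM for fibroblasts, against 41.8 to 73.1 CPM, and 0.961 and 2.38 CPM for 2-cell-like cells, against 0.490 to 4.25 CPM. The fibroblast markers Postn, Dcn, Twist2 and Fap had 0 counts in both labelled TRIM24-KO libraries. Of the 7 tested fibroblast markers, 2 were called lower and none higher. The part of the pluripotency and fibroblast differences in the members' levels was not tested.

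**Figure D3:**
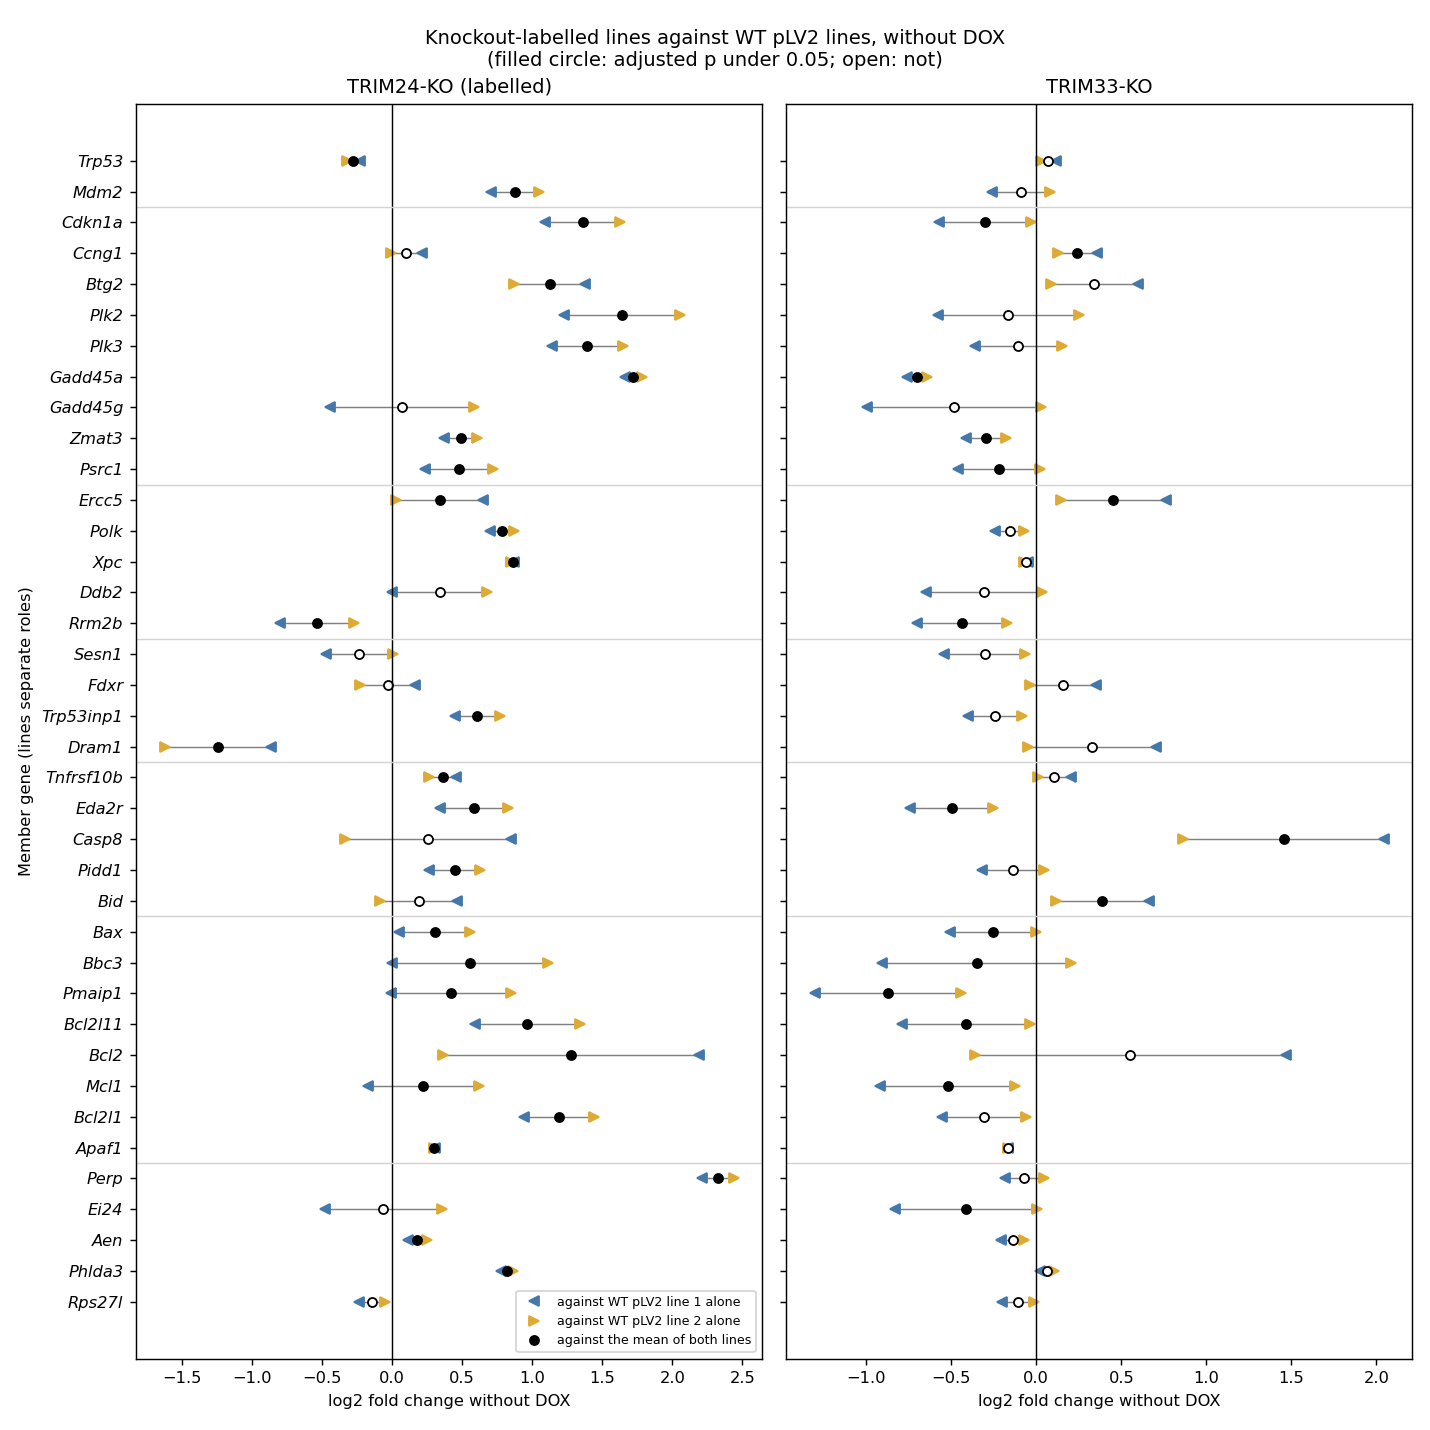
Log2 fold change without DOX of labelled TRIM24-KO (left) and TRIM33-KO (right) for the 38 tested members (rows, by role) against the mean of both WT pLV2 lines (circles, filled where called) and against line 1 (blue) or line 2 (yellow) alone. In the left panel most members lie right of 0 against either line, with Perp at 2.32; in the right panel Casp8 is the one member called against line 2 alone.

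TRIM33-KO gave no comparable pattern, and its comparison turned on the WT line used. Against the mean of both lines 16 members were called, 4 higher and 12 lower, beside 23.9% of all genes (12.8% higher, 11.1% lower), with a median of -0.16 over the members and 0 over all genes. With line 1 as the only reference 25 members were called (5 higher, 20 lower), beside 7390 of the 18079 genes tested. With line 2 as the only reference it was 1 member, Casp8, beside 274 genes. The number called thus fell over all genes too, and the fall is not particular to the members. Casp8, the initiator caspase of the receptor route, had 8.001 and 10.4 CPM in TRIM33-KO, 5.48 and 4.60 in line 2, 3.66 and 4.35 in labelled TRIM24-KO and 2.61 and 1.87 in line 1. It was higher by 1.45 ± 0.17 (adjusted p 1.59e-05), or 2.04 against line 1 and 0.86 against line 2 (adjusted p 0.0258), with no overlap between TRIM33-KO and WT libraries. The other named members higher than the mean were Ercc5 (33.00 and 34.9 CPM, against 19.6 and 20.3 in line 1 and 32.1 and 29.2 in line 2) and Bid (35.9 and 35.9 CPM, against 21.8 and 23.5 and 34.02 and 32.3), both above every WT library but close to line 2 (0.14 and 0.11), and Ccng1 (129 and 147 CPM, against 104 and 112 and 120.4 and 132; 0.24 ± 0.07, adjusted p 0.0139). The Ccng1 groups overlap, and its call was lost against line 2 alone (0.13) and without the replicate 2 library of TRIM33-KO (0.16, adjusted p 0.212).

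Lower members in TRIM33-KO included Mcl1, Pmaip1 and Ei24. Mcl1 had 200.3 and 187 CPM in TRIM33-KO, 209 and 213 in line 2 and 359 and 373 in line 1 (-0.52 ± 0.06, adjusted p 2.23e-05). Pmaip1 had 32.5 and 21.5 CPM, against 36.98 and 36.3 and 66.1 and 67.2 (-0.87 ± 0.11, 3.58e-05). Both were below all 4 WT libraries, yet against line 2 alone they were -0.12 and -0.44 and not called. Ei24 had 67.7 and 70.02 CPM, against 63.9 and 73.5 in line 2 and 116 and 129 in line 1, and its difference of -0.41 ± 0.07 became 0.01 against line 2. Gadd45a was lower than both lines (-0.70 ± 0.14; -0.76 and -0.64 against each, the second not called). Rrm2b, Eda2r, Bcl2l11, Zmat3, Cdkn1a, Bbc3, Bax and Psrc1 were also called lower than the mean of both lines, by -0.50 at most and -0.22 at least, and none of them against line 2 alone. Those 8 each lost the call in 1 or more leave-one-out fits, and without the replicate 2 library of TRIM33-KO lacking DOX 7 members were called.

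The 2 WT pLV2 lines, which share genotype and treatment by their labels, differed in 25 of the 38 members without DOX, 7 higher and 18 lower in line 2, beside 38.3% of all genes (18.9% higher, 19.3% lower). The members' median was -0.28, and 0 over all genes. Lower in line 2 were Mcl1 (209 and 213 CPM against 359 and 373; -0.79 ± 0.07, adjusted p 3.25e-07), Ei24 (63.9 and 73.5 against 116 and 129; -0.84 ± 0.08, 3.85e-07) and Bbc3 (9.94 and 12.6 against 25.1 and 23.2; -1.11 ± 0.13, 3.68e-06). Pmaip1 (-0.86 ± 0.12), Plk2 (-0.83 ± 0.13), Bcl2l11 (-0.76 ± 0.12), Cdkn1a (-0.54 ± 0.11), Bax (-0.51 ± 0.08) and Mdm2 (-0.34 ± 0.08) were lower as well. Higher in line 2 were Ercc5 (32.1 and 29.2 against 19.6 and 20.3; 0.62 ± 0.10, 9.68e-05), Bid (34.02 and 32.3 against 21.8 and 23.5; 0.55 ± 0.11, 5.80e-04) and Casp8 (5.48 and 4.60 against 2.61 and 1.87; 1.18 ± 0.23, 7.59e-04), along with Btg2 (0.51 ± 0.17), Ccng1 (0.23 ± 0.08), Fdxr (0.39 ± 0.14) and Bcl2 (1.83 ± 0.64). The calls of Btg2, Ccng1, Fdxr, Bcl2 and Mdm2 were lost when single libraries were left out, with adjusted p up to 0.102, 0.137, 0.139, 0.164 and 0.117. Those of Ddb2, Eda2r, Plk3, Rps27l, Rrm2b, Sesn1 and Trp53inp1 were lost in the same way, and 12 of the 25 held whichever library was left out. Of the 8 tested BCL2 family and mitochondrial genes 6 were called lower in line 2, of which Bcl2l1 lost its call without any of the 4 libraries (adjusted p 0.0603 to 0.102). Fibroblast markers summed to 73.1 and 66.4 CPM in line 2 and 43.7 and 41.8 CPM in line 1, with Postn, Dcn, Lum, Twist2, Prrx1 and Fap at 0 in both. Of the 7 tested fibroblast markers 5 were called higher and 1 lower in line 2 (median 1.08), and the part of that difference in the members' levels was not tested. The count was 15 without line 2 replicate 1 and 16 without line 1 replicate 1.

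**Figure D4:**
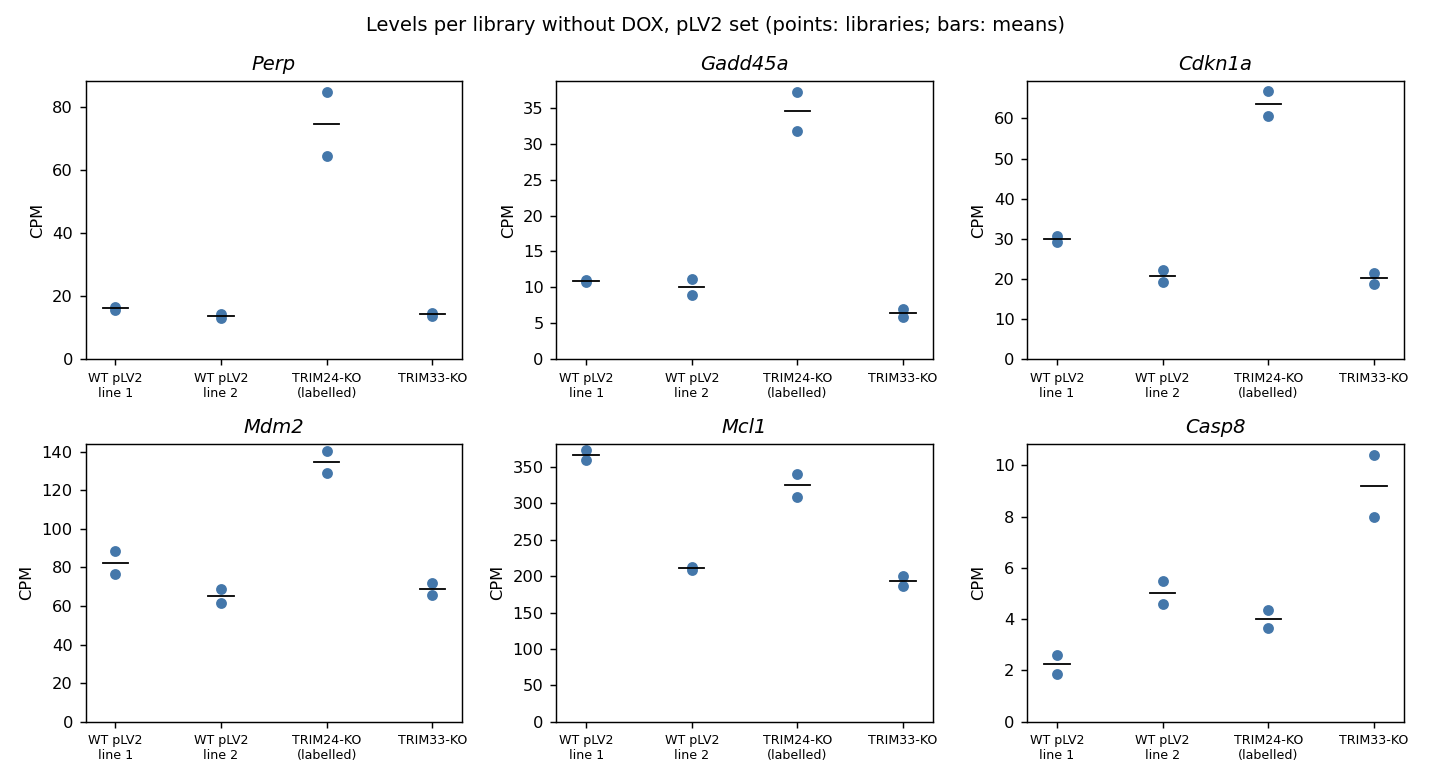
CPM (linear axes from 0) per library without DOX in the 4 pLV2 lines; bars are means of 2 libraries. Perp, Gadd45a, Cdkn1a and Mdm2 are highest in labelled TRIM24-KO, whereas for Mcl1 and Casp8 line 2 lies nearer TRIM33-KO than line 1 does.

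In the plain set no member was called between labelled DUXBL-KO and WT without DOX in the edgeR fit used here, beside 0.0388% of all genes. 4 members had an unadjusted p under 0.05 and DESeq2 called 0. The largest log2 fold change was 1.48 ± 0.55 for Casp8, at 1.40 and 3.21 CPM against 0.854 and 0.790 in WT (adjusted p 0.504). Perp was far apart between replicates, with 20.3 and 58.7 CPM in labelled DUXBL-KO. With the replicate number as a block edgeR called Bid lower in labelled DUXBL-KO (-0.75, adjusted p 0.00574). With no filter on low counts it called Bid lower (-0.74, adjusted p 0.000617) and Casp8, Perp and Pmaip1 higher.

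A list of 71 further genes of the pathway, of which 67 were tested, was counted in the same way. With DOX the numbers called higher and lower were 0 and 0 in WT, 1 and 4 in labelled DUXBL-KO, 4 and 8 in line 1, 6 and 20 in line 2, 5 and 7 in labelled TRIM24-KO, and 9 and 22 in TRIM33-KO. These are 0%, 7.46%, 17.9%, 38.8%, 17.9% and 46.3% of the 67, beside 2.93%, 4.91%, 16.3%, 26.8%, 16.4% and 36.6% of all genes. With RLE factors the counts were 6 and 11 (25.4%, beside 24.3% of all genes) in line 2 and 11 and 18 (43.3%, beside 34.2%) in TRIM33-KO, and with DESeq2 6 and 10 (23.9%, beside 19.5%) and 10 and 13 (34.3%, beside 27.8%). DESeq2 gave 0 and 3 (4.48%, beside 4.21%) in WT and 2 and 6 (11.9%, beside 5.70%) in labelled DUXBL-KO. Hrk, a BH3-only gene, fell in all 4 pLV2 lines (-0.78 ± 0.23, -1.35 ± 0.24, -1.07 ± 0.30 and -1.20 ± 0.25), as did Gdf15, a secreted stress factor induced by p53 (-0.76 ± 0.21, -0.88 ± 0.21, -1.09 ± 0.27 and -0.97 ± 0.22). Without DOX replicate 2, Hrk and Gdf15 in labelled TRIM24-KO (-0.92 and -0.99, adjusted p 0.122 and 0.0625) and Gdf15 in TRIM33-KO (-0.72, adjusted p 0.06) were not called, and Hrk in TRIM33-KO was (-1.18, adjusted p 0.0128). DESeq2 did not call Hrk in line 1 (-0.77, adjusted p 0.133) or labelled TRIM24-KO (-1.10, 0.0642), nor Gdf15 in line 1 (-0.75, 0.0849). Ccnd2 (cyclin D2) fell in line 1 (-1.14 ± 0.19) and line 2 (-1.07 ± 0.15), and Bnip3, a BH3-like mitophagy gene, in line 2 (-0.82 ± 0.16) and TRIM33-KO (-1.11 ± 0.16; -1.07, adjusted p 0.00165, without DOX replicate 2). Cycs (cytochrome c) rose in all 4 pLV2 lines (0.34 ± 0.08, 0.45 ± 0.08, 0.29 ± 0.08 and 0.48 ± 0.08), as did Sesn3 (0.61 ± 0.13, 0.41 ± 0.14, 0.61 ± 0.13 and 0.62 ± 0.14). Without DOX replicate 2, Cycs was not called in labelled TRIM24-KO (0.22, adjusted p 0.149) and was in TRIM33-KO (0.57, adjusted p 0.000394), and Sesn3 was called in both (0.57 and 0.75, adjusted p 0.0303 and 0.00477). DESeq2 did not call Cycs in labelled TRIM24-KO (0.27, adjusted p 0.0778).

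Without DOX, 23 of these 67 genes were called higher and 18 lower in labelled TRIM24-KO (61.2%, beside 43.4% of all genes). Against line 1 alone the counts were 20 and 15, and against line 2 alone 23 and 21. Phlda1 (2.08 ± 0.16), Cd80 (1.94 ± 0.23) and Def6 (1.28 ± 0.10) were the furthest up, and Ccnd2 (-2.20 ± 0.16), Steap3 (-1.78 ± 0.16) and Hrk (-0.85 ± 0.20) the furthest down. In TRIM33-KO 11 were higher and 10 lower (31.3%, beside 23.9% of all genes), with Casp2 (1.06 ± 0.09) and Hipk2, a p53 kinase (0.96 ± 0.10), leading upwards and Ccnd2 (-1.60 ± 0.15) and Bmf (-0.79 ± 0.14) downwards. Against line 2 alone 1 was higher and 1 lower, with 0.04 for Casp2, -0.19 for Hipk2 and -0.40 for Bmf, none called, and -2.29 for Ccnd2 (adjusted p 1.69e-07). Between the WT lines 21 were higher and 19 lower in line 2 (59.7%, beside 38.3% of all genes), among them Hipk2 (2.29 ± 0.13) and Casp2 (2.03 ± 0.12) upwards and Phlda1 (-1.28 ± 0.23) downwards. In labelled DUXBL-KO without DOX none was called by edgeR, and DESeq2 called 1 higher and 3 lower (5.97%, beside 0.975% of all genes).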

How the data were processed

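Total RNA libraries, depleted of ribosomal RNA, were sequenced from 24 samples. Per the submitters' processing notes the authors used bcl2fastq 2.20.0, cutadapt 1.18 and STAR 2.7.6a with mm10; the counting tool, its strand setting and its treatment of reads with several placements are not given in the sources used here. The deposited values are raw counts per gene. Rows that are not genes were left out. edgeR 4.0.16 was run in R 4.3.3 on each set apart, with TMM factors, filterByExpr by group, a fit over all groups of the set and Benjamini-Hochberg adjustment; SE is the log2 fold change over the square root of F. TRIM24-KO and TRIM33-KO were set against the average of the WT pLV2 lines. The scripts were tested on simulated data. Precision is limited by 2 libraries a group. DESeq2 1.42.0, other scaling, filters, fits, references and leaving out each library were alternatives. The members and lists were chosen with earlier results of these data known. Values per library are given for Trp53, Mdm2, Cdkn1a, Ccng1, Bax, Bbc3, Fas and Bcl2, for members called one way in at least 4 of the 6 DOX comparisons, and for the 3 rising and 3 falling called members with the smallest p in each comparison; from the wider pathway list, at most 3 called genes each way per comparison, by size of change. Other genes, and further lines for those genes, were chosen after their values were seen.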

Additional observations from a re-analysis of the deposited data

Results flagged for a closer look

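The DOX response of Plk2 differed between lines by the test of the difference itself. It was larger in WT pLV2 line 2 than in line 1 by 0.89 on the log2 scale (edgeR, adjusted p 0.0428), with rises of 1.50 and 0.61, and both libraries with DOX above both without it in each line. It was also larger in TRIM33-KO than in the mean of the WT pLV2 lines, by 0.82 (edgeR, adjusted p 0.0166), with a rise of 1.87 in TRIM33-KO. Both differences use line 2 and line 1, so they share libraries. Neither call held in every fit. The line difference lost it when any of 6 libraries was left out and when only the compared groups were fitted, and the TRIM33-KO difference when any of 4 was left out and against line 2 alone (0.37, adjusted p 1).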

How the results depend on the processing

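Of 119 called results for members, 46 held their direction and call in every alternative. Leaving out 1 library gave 0 to 1 members called with DOX in WT, 0 to 3 in labelled DUXBL-KO, 4 to 5 in line 1, 6 to 10 in line 2, 3 to 7 in labelled TRIM24-KO and 10 to 13 in TRIM33-KO. Without DOX it gave 0 to 0 for labelled DUXBL-KO against WT, 15 to 21 for line 2 against line 1, 23 to 31 for labelled TRIM24-KO and 7 to 18 for TRIM33-KO. For differences in response it gave 0 to 0 (labelled DUXBL-KO), 0 to 1 (lines), 0 to 1 (labelled TRIM24-KO) and 0 to 2 (TRIM33-KO). The count moved by over 1.5 times without any of the 4 WT libraries (1 without the replicate 2 library given DOX, otherwise 0). It did so in labelled DUXBL-KO without DOX replicate 2 (0) or either library lacking DOX (1 and 0), in labelled TRIM24-KO without either library lacking DOX (5 and 3), and in TRIM33-KO without DOX replicate 1 or the replicate 1 library lacking DOX (10 each).

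With no filter on low counts, members called numbered 7 with DOX in WT, 12 in labelled DUXBL-KO, 4 for labelled DUXBL-KO against WT, and 2 and 3 for the response differences of labelled TRIM24-KO and TRIM33-KO. With DOX in WT, 1 of these 7, Pmaip1, was higher. DESeq2 gave 5, 7, 1 and 4 for DOX in WT and in labelled DUXBL-KO and for those 2 response differences. With only the compared groups in the fit the counts were 0 in WT, 0 in labelled DUXBL-KO, 14 in line 1, 4 in line 2, 5 in labelled TRIM24-KO and 0 for the response difference of the lines. With line 1 alone as the reference TRIM33-KO had 25 and its response difference 3; with line 2 alone these were 1 and 0, and the response difference of labelled TRIM24-KO was 1. Against line 2 alone, values turned for Ei24 in labelled TRIM24-KO (0.35) and for Bbc3 (0.20), Ei24 (0.00626) and Psrc1 (0.0216) in TRIM33-KO; against line 1 alone, for Mcl1 (-0.17) and Pmaip1 (-0.0105) in labelled TRIM24-KO. The cause was not tested.

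The replicate number as a block gave 6 members called with DOX in WT, 10 in labelled DUXBL-KO and 1 between these lines without DOX. The members gaining a call were Bbc3, Pidd1, Psrc1 and Pmaip1 (the last higher) in WT, Bax, Bbc3, Eda2r, Mdm2, Pidd1 and Polk (all lower) in labelled DUXBL-KO, and Bid (lower) between the lines. Bbc3 was -1.09 (adjusted p 0.0209) in WT and -1.31 (0.00507) in labelled DUXBL-KO, and Pmaip1 0.76 (0.0276) in WT. Same-numbered samples correlated in their deviations at 0.29 to 0.64 over 6 group pairs of the plain set and -0.06 to 0.25 over 28 of the pLV2 set. All 6 plain-set values were above 0, so same-numbered plain libraries may share a batch or culture. The labels name none, and with 2 numbers the fit used here has no block. Calls and non-calls in the plain set depend on that choice. Fas, Bcl2 and Dram1 are limited by depth.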
